A study of Mus musculus with 12 samples.

Results

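Transcript levels of 10 genes of the bone morphogenetic protein (BMP) pathway were followed in mouse embryoid bodies, the floating clusters that embryonic stem (ES) cells form as they differentiate. The 10 genes were 4 ligands (Bmp2, Bmp4, Bmp5 and Bmp7) and 6 genes that respond to BMP signalling (Id1, Id2, Id3, Msx1, Msx2 and Smad6). They were chosen by name, and each was read from the probe set that the annotation gives to that gene alone, or the brightest where there were several. Each of the 10 had exactly 1 such probe set. They are 10 of the 19938 genes with a probe set of their own, and all 10 were among the 15950 genes bright enough to be tested.

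The 12 samples were grown from A2lox ES cells (129P2/OlaHsd strain), in which doxycycline (dox) switches on a transgene. One line overexpresses Geminin (gene Gmnn, which encodes an inhibitor of replication licensing that acts through Cdt1) when dox is given, and the other expresses microRNAs against the Gmnn transcript. The groups were as follows: the overexpression line on day 5 with dox from day 3 (2 arrays) and without dox (2 arrays), the same line on day 4 with dox from day 3 (1 array) and without dox (1 array), and the knockdown line on day 4 with dox from day 0 (3 arrays) and without dox (3 arrays). Dox was used at 0.5 µg/ml, the untreated samples carried the same transgenes, and the ES cells had been grown on mouse feeder fibroblasts that were subtracted before aggregation. Replicates 1 and 2 of the overexpression line were the day 5 samples and replicate 3 was the day 4 sample, so in that line the day and the replicate cannot be told apart. The labels do not say whether replicates were separate cultures; p-values therefore cover the spread among these 12 samples alone, and that spread may be technical. An embryoid body is a mixture of cell types, and fewer cells of a type and less RNA per cell cannot be told apart in such bulk samples.

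BMPs are secreted signals that bind a complex of type I and type II receptor kinases at the cell surface. The receptors phosphorylate SMAD1, SMAD5 and SMAD9, which join SMAD4, enter the nucleus and switch on response genes such as the Id genes. In the early mouse embryo BMP4 from the extraembryonic ectoderm helps to start the primitive streak, and BMP signals later favour lateral and extraembryonic mesoderm and surface ectoderm over neural tissue.

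Levels below are log2(intensity + 1) after quantile normalization. A gene is called changed when its adjusted p from the limma model over all 15950 genes, with Benjamini-Hochberg adjustment, is under 0.05. Differences are given as log2 difference ± the model's standard error (SE). The levels of Gmnn itself followed the labels in direction. In the overexpression line it was at 11.10 ± 0.38 with dox and 10.22 ± 0.10 without dox on day 5 (SD, n = 2 each), and at 11.04 with dox and 10.35 without on day 4. In the knockdown line it was at 9.68 ± 0.06 with dox and 10.18 ± 0.14 without dox (SD, n = 3 each). Gmnn was not called for dox in either line, so a gene that dox acts on directly can go uncalled here. Its dox difference was -0.499 ± 0.138 in the knockdown line (limma, adjusted p = 0.965). In the overexpression line it was 0.818 ± 0.138 (limma, adjusted p = 0.922). Pou5f1, a gene of pluripotent cells, had group means between 12.03 and 12.66.

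Most of the 10 genes were highest in the day 5 overexpression line, next in the day 4 overexpression line and lowest in the day 4 knockdown line. In 8 of the 10 genes, all but Id2 and Smad6, each of the 4 day 5 arrays was above both day 4 arrays of the overexpression line, and both of these were above all 6 knockdown line arrays. That order was met by 1.44% of the 15950 genes. Its line part was set after the levels had been seen, so the count is a description and not a test. Bmp2 and Bmp5, among the 8, passed the brightness filter through the groups at the top of this order. No member was called changed by dox in either line, and neither was Gmnn.

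**Figure D1:**
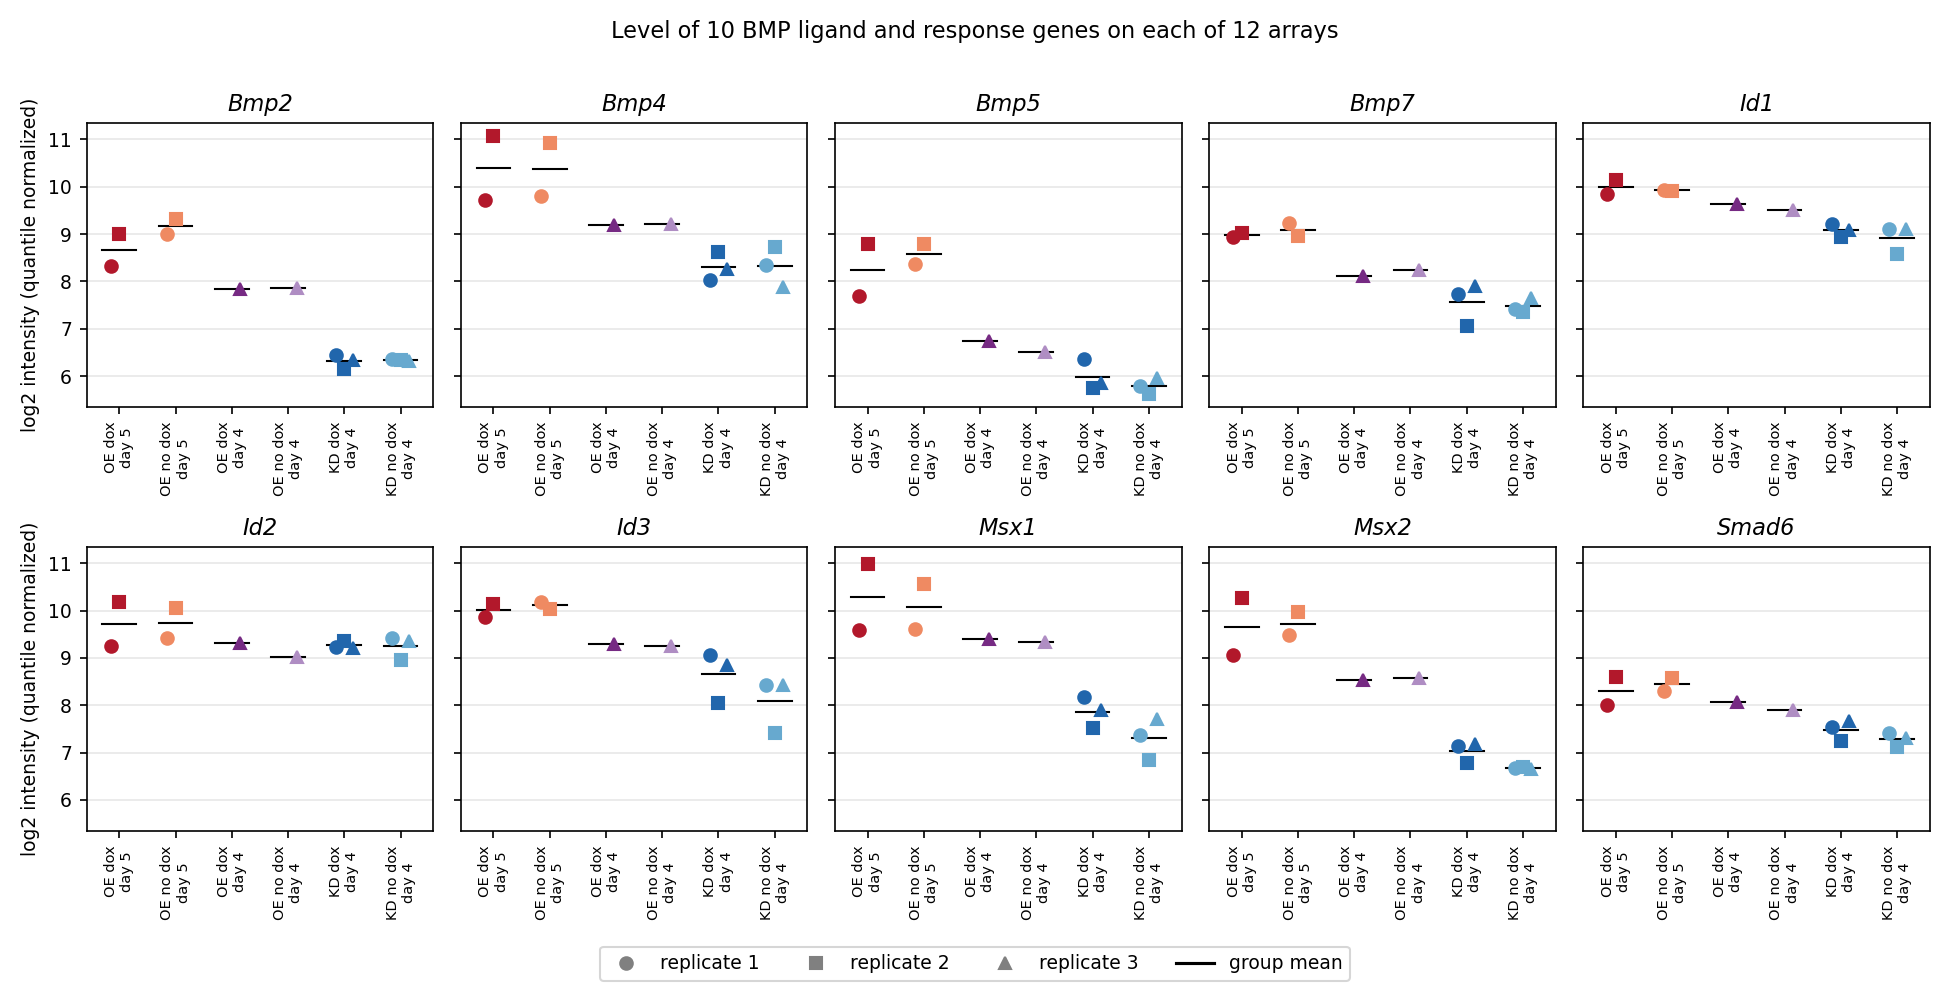
Log2 level of each of the 10 genes on each of the 12 arrays. Groups run from the overexpression line on day 5 to the knockdown line on day 4, with dox left of no dox. OE is the overexpression line and KD the knockdown line. Each point is 1 array and each bar a group mean. Msx2, for example, sits between 9.05 and 10.26 on the day 5 arrays, at 8.53 and 8.58 on the day 4 arrays of the overexpression line, and between 6.66 and 7.17 on the knockdown line arrays.

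The ligands were compared first between day 5 and day 4 of the overexpression line. Bmp5, a ligand of the BMP5/6/7 subgroup, had levels of 7.69 and 8.80 with dox and 8.36 and 8.79 without dox on day 5. On day 4 it had 6.74 with dox and 6.52 without. The 4 day 5 arrays all lay above both day 4 arrays. The log2 difference of 1.78 ± 0.29, higher on day 5, was called by limma (adjusted p = 0.0367). Bmp5 was below the brightness filter of 6.46 on all 6 knockdown line arrays and only slightly above it on day 4. It passed that filter through its day 5 levels, so this call is given as a description without an exact fold. With no brightness filter it was not called (limma, adjusted p = 0.0509). Bmp2, a ligand of the BMP2/4 subgroup, had 8.31 and 9.005 with dox and 9.01 and 9.32 without dox on day 5, against 7.85 with dox and 7.87 without on day 4. The groups again did not overlap, and the difference of 1.05 ± 0.19 (2.07-fold) was called (limma, adjusted p = 0.0433).

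Bmp4 encodes the ligand best known for inducing mesoderm. Its levels on day 5 were 9.73 and 11.07 with dox and 9.81 and 10.92 without dox, against 9.19 with dox and 9.20 without on day 4. The replicate 2 arrays stood well above the replicate 1 arrays, both with and without dox. The day difference of 1.19 ± 0.39 (2.28-fold) was not called (limma, adjusted p = 0.198). Bmp7, which forms heterodimers with Bmp2 and Bmp4 products, lay between 8.94 and 9.23 on day 5 and at 8.11 and 8.23 on day 4. Its difference of 0.87 ± 0.20 (1.83-fold) was not called either (limma, adjusted p = 0.0897), although the 2 days did not overlap.

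The response genes also ranked higher on day 5, and none of the 6 was called. Msx2, a homeobox repressor gene switched on by BMP in ectoderm and mesoderm, had 9.05 and 10.26 with dox and 9.48 and 9.97 without dox on day 5. Its day 4 levels were 8.53 with dox and 8.58 without, below all 4 day 5 arrays. The difference was 1.14 ± 0.27 (2.20-fold; limma, adjusted p = 0.0933). Msx1, its close relative, had 9.59 and 10.99 with dox and 9.61 and 10.56 without dox on day 5, against 9.41 with dox and 9.33 without on day 4. Its replicate 1 arrays were close to the day 4 level and its replicate 2 arrays were not. The difference was 0.82 ± 0.39 (limma, adjusted p = 0.375).

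The Id genes encode helix-loop-helix proteins without a DNA-binding region that tie up bHLH transcription factors. Id3 had 9.86 and 10.15 with dox and 10.19 and 10.04 without dox on day 5, against 9.30 with dox and 9.24 without on day 4. The day groups did not overlap, and the difference was 0.79 ± 0.32 (1.73-fold; limma, adjusted p = 0.294). Id1 lay between 9.84 and 10.15 on day 5 and at 9.64 and 9.51 on day 4, a difference of 0.39 ± 0.16 (limma, adjusted p = 0.302). Id2 overlapped between the days, since its replicate 1 array with dox on day 5 (9.25) was below the day 4 array with dox (9.32). Its difference was 0.55 ± 0.25 (limma, adjusted p = 0.365). Smad6, the inhibitory SMAD that BMP induces as feedback, lay between 7.998 and 8.59 on day 5 and at 8.07 and 7.90 on day 4, and overlapped likewise (0.38 ± 0.18; limma, adjusted p = 0.376).

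All 10 members were above 0 in the day comparison, where 49.8% of all genes were. Of the 10, 2 were called, against 0.558% of all genes (0.395% called higher). At an unadjusted p under 0.05, 7 of the 10 were higher on day 5, against 7.52% of all genes (14.2% in either direction). The median log2 difference of the 10 genes was 0.843, against -0.000542 over all genes, whose 5th and 95th percentiles were -0.346 and 0.439. In 8 of the 10 genes each day 5 array was above both day 4 arrays, which held for 15.4% of all genes. Bmp5 is counted in each of these, although it passed the brightness filter through its day 5 levels.

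The calls of Bmp2 and Bmp5 did not hold in every fit. With the pair of line and replicate as a random block the adjusted p was 0.232 for Bmp2 and 0.185 for Bmp5, and 0 genes of the 15950 were called. Leaving out single arrays kept both differences above 0, but gave adjusted p from 0.00698 (without the replicate 1 array with dox) to 0.711 (without the day 4 array without dox) for Bmp2, and from 0.00567 to 0.655 for Bmp5 without the same arrays. Bmp2 was called in 3 of these 12 fits (without the replicate 1 array with dox, or without the knockdown line's no-dox replicate 2 or 3). Bmp5 was called in 5 of them (those 3, and without the knockdown line's dox replicate 1 or 2). The replicate 2 pair carried much of the day difference in several genes. Without both replicate 2 arrays the difference was 0.575 for Bmp4, 0.231 for Msx1, 0.154 for Id2 and 0.164 for Smad6, and without both replicate 1 arrays it was 1.80, 1.41, 0.941 and 0.599. Without replicate 2, 0 members and 3 of all genes were called, and without replicate 1, 6 members and 350 of all genes.

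The day 5 replicates themselves differed in the BMP genes. In 6 of the 10 genes (Bmp4, Bmp5, Id2, Msx1, Msx2 and Smad6) both replicate 2 arrays were above both replicate 1 arrays, which held for 34.5% of all genes. The mean gap, replicate 2 minus replicate 1, was 1.22 for Bmp4, 1.17 for Msx1 and 0.849 for Msx2 on the log2 scale. It was 0.788 for Id2, 0.766 for Bmp5, 0.50 for Bmp2 and 0.435 for Smad6. Id1 (0.147), Id3 (0.0681) and Bmp7 (-0.0927) showed little gap. For Bmp4, Id2, Msx1 and Smad6 the gap between replicates was larger than the difference between days, and for the other 6 genes it was smaller.

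**Figure D2:**
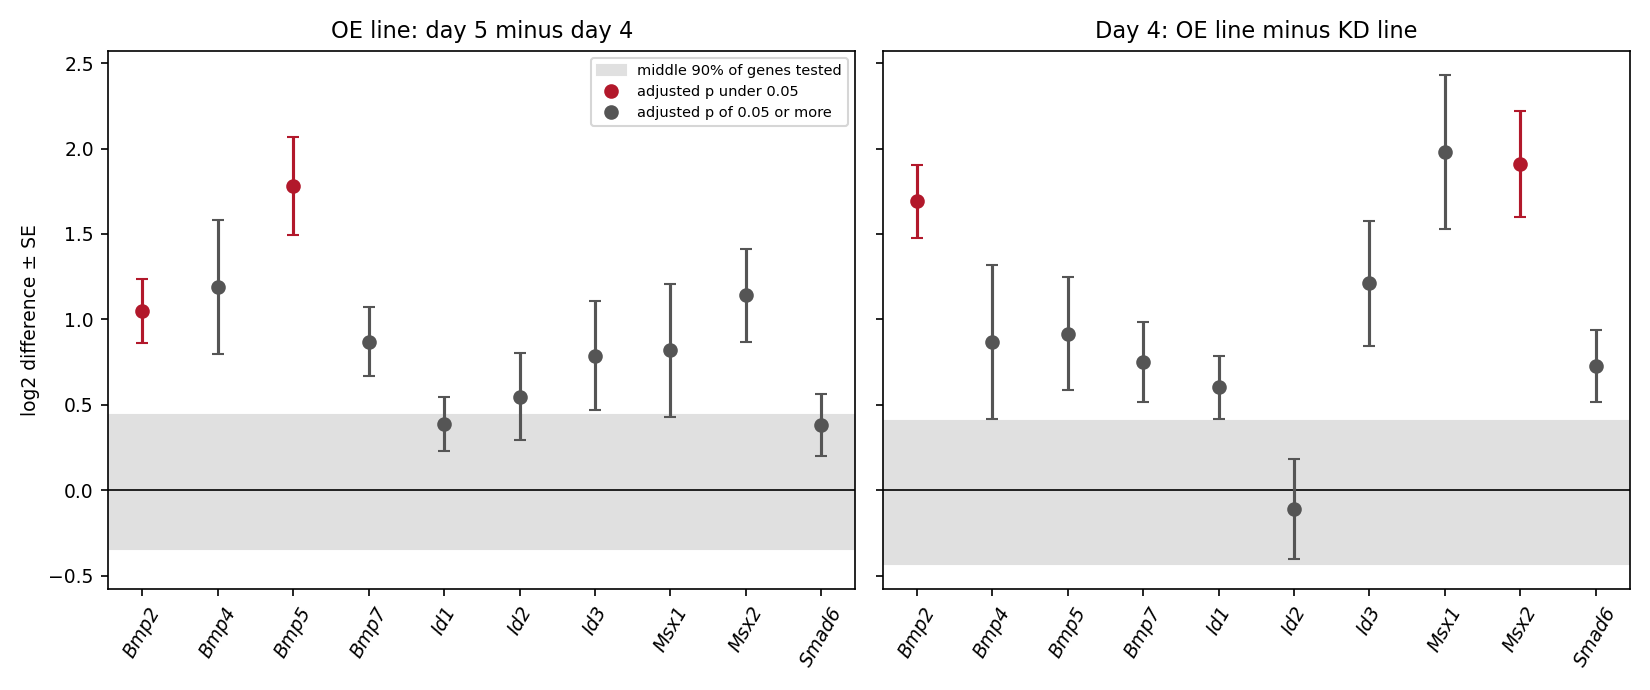
Log2 difference of each of the 10 genes ± SE, for day 5 against day 4 in the overexpression line and for the overexpression (OE) line against the knockdown (KD) line on day 4. Red points are called, and the grey band holds the differences between the 5th and 95th percentiles of all genes. All 10 points lie above 0 for day, from 0.38 for Smad6 to 1.78 for Bmp5, and 9 of 10 for line, where Id2 lies at -0.11.

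The 2 lines were also compared with each other on day 4, a comparison added after the levels had been seen. It sets the arrays of the overexpression line against those of the knockdown line at the no-dox baselines of the model. Line, replicate number and culture cannot be told apart in it. The dox effect of the overexpression line was fitted over both of its days. The day 5 arrays therefore also shift its day 4 baseline, and with it the differences between the lines. On the arrays without dox alone the difference was 1.53 for Bmp2 and 1.9 for Msx2, against 1.69 and 1.91 in the model. Bmp2 was at 7.85 with dox and 7.87 without dox in the overexpression line. In the knockdown line it was at 6.45, 6.14 and 6.33 with dox and 6.35, 6.34 and 6.32 without dox, at or below the brightness filter of 6.46. The log2 difference was 1.69 ± 0.22 (limma, adjusted p = 0.0176). Bmp2 passed the brightness filter through its overexpression line levels alone, so this call is given as a description and no exact fold is given against the dim knockdown line values. Msx2 was the other called member, 1.91 ± 0.31 (3.76-fold) higher in the overexpression line (limma, adjusted p = 0.0433). Its levels were 8.53 with dox and 8.58 without dox in the overexpression line, against 7.15, 6.78 and 7.17 with dox and 6.67, 6.70 and 6.66 without dox in the knockdown line.

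Msx1 had the largest difference between the lines, 1.98 ± 0.45 (3.95-fold), and was not called (limma, adjusted p = 0.119). Its levels were 9.41 with dox and 9.33 without dox in the overexpression line, against 8.17, 7.51 and 7.89 with dox and 7.36, 6.84 and 7.72 without dox in the knockdown line. Id3 differed by 1.21 ± 0.37 (limma, adjusted p = 0.236). Bmp5 (0.92 ± 0.33), Bmp4 (0.87 ± 0.45), Bmp7 (0.75 ± 0.23), Smad6 (0.73 ± 0.21) and Id1 (0.60 ± 0.18) were above 0 without being called. Id2 did not share this pattern, with levels of 9.32 and 9.03 on day 4 in the overexpression line and 8.95 to 9.42 in the knockdown line (-0.11 ± 0.29; limma, adjusted p = 0.914).

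Between the lines 9 of the 10 differences were above 0, against 46.9% of all genes. In 9 of the 10 genes both overexpression line arrays of day 4 were above all 6 knockdown line arrays, against 8.11% of all genes. Bmp2 and Bmp5 are among the members counted in this paragraph, although both passed the brightness filter through overexpression line levels. Its counts are therefore descriptions. Called were 2 of 10, Bmp2 among them, against 0.307% of all genes, and 8 of 10 had an unadjusted p under 0.05, against 11.6%. On the arrays without dox alone neither gene was called (adjusted p = 0.20 for both). Leaving out single arrays gave adjusted p from 0.00994 to 0.388 for Bmp2 and from 0.0103 to 0.897 for Msx2. The highest values came without the overexpression line's day 4 array without dox, and both calls were also lost without its day 4 array with dox (0.139 and 0.254) and without the knockdown line's no-dox replicate 1 (0.0653 and 0.126) or 2 (0.0548 and 0.104). Bmp2 was called in the other 8 of the 12 fits. Msx2 was called in 3, those without either day 5 array with dox or without the knockdown line's dox replicate 2.

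The stretches before the start sites of the genes are shown because SMAD complexes are known to bind the letters GTCT and GGCGCC in BMP response genes. RefSeq windows of 300 bases, from 250 before to 50 after the start (GRCm38.p6), were matched for 7 of the 10 genes (not Bmp2, Bmp7 or Id1), and 5 are printed from 5′ to 3′ on the gene's own strand. They lie at chr9:64022010-64022309 on the minus strand (Smad6), chr12:25096043-25096342 on the minus strand (Id2), chr4:136143572-136143871 on the plus strand (Id3), chr13:53472731-53473030 on the minus strand (Msx2) and chr9:75775115-75775414 on the plus strand (Bmp5). Capitals mark GGCGCC and GTCT, the latter also as AGAC, its letters on the other strand.
Smad6: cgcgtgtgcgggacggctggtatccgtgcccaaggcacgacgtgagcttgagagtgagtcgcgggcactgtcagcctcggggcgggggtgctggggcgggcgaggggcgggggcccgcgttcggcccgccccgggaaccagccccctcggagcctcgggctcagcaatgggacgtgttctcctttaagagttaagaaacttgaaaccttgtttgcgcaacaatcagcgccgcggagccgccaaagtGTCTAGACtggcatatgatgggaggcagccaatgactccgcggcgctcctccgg
Id2: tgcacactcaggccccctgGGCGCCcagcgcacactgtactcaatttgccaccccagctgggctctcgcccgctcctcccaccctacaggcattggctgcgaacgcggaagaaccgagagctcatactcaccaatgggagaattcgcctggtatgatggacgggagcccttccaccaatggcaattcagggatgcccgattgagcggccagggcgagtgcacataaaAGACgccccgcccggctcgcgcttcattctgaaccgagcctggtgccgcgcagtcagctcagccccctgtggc
Id3: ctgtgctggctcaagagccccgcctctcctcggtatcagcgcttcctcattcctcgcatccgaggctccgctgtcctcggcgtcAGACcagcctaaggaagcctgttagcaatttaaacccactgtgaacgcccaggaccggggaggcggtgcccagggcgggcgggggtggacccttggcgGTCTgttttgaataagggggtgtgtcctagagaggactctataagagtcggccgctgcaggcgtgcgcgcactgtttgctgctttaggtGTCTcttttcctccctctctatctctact
Msx2: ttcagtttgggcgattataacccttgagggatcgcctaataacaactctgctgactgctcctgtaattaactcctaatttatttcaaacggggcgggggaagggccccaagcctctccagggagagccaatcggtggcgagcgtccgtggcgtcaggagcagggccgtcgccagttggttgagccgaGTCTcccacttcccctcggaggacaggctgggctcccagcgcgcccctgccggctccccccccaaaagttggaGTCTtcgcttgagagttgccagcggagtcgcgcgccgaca
Bmp5: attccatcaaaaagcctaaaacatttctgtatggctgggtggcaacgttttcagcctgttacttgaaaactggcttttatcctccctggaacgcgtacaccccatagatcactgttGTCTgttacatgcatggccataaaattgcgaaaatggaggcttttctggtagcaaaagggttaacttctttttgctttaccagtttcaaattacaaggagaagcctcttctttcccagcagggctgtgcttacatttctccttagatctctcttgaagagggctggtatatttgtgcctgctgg

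Of the 7 windows that of Smad6 alone held GTCTAGAC, the palindrome of GTCT and AGAC, beginning 4 bases before the start, and this stands in 0.213% of the 32851 mouse windows. That of Id2 alone held GGCGCC, 231 bases before the start, which stands in 11.9% of windows. GTCT on either strand was in 6 of the 7 windows, all but Msx1, but also in 88.0% of all windows. The joined form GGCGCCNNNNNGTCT was in 0 of the 7 and in 0.0731% of all windows. These are letter matches in short windows, and sites farther away were not searched.

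The effect of dox was then read pair by pair, each array with dox against the array without dox of the same line and replicate number. In the knockdown line 4 response genes, Id3, Msx1, Msx2 and Smad6, were higher with dox in all 3 pairs, against 19.5% of all genes. A wider list of BMP response genes, which includes the Id and Msx members, did not share this direction. Of its 20 tested genes 11 had a mean dox difference above 0 there, against 52.7% of all genes, and the median was 0.0232. Id3 had 9.06, 8.04 and 8.86 with dox, against 8.43, 7.41 and 8.44 without dox, in replicates 1, 2 and 3. The pair differences were 0.631, 0.638 and 0.427, and the groups overlapped because replicate 2 was low in both. The mean difference was 0.57 ± 0.30 (1.48-fold; limma, adjusted p = 0.965). Msx1 had pair differences of 0.808, 0.674 and 0.176 and a mean difference of 0.55 ± 0.37 (limma, adjusted p = 0.965). The SE and limma p-values of these genes come from the fit without pairing. With the replicate number as a block the 4 genes were not called either. Their adjusted p was then 0.189 for Id3, 0.287 for Msx1, 0.391 for Msx2 and 0.464 for Smad6 (limma). Unadjusted p was under 0.05 for Id3, Msx1 and Msx2 in that fit, as for 1941 of all genes.

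Msx2 had pair differences of 0.483, 0.0724 and 0.516. It was the only member for which every array with dox in the knockdown line was above every array without dox, as 4.97% of all genes were. Its mean difference was 0.36 ± 0.26 (limma, adjusted p = 0.965; exact permutation p = 0.1, the smallest that 3 arrays against 3 allow). Smad6 had pair differences of 0.129, 0.117 and 0.349 and a mean difference of 0.20 ± 0.17. For comparison, 1 of the 15950 genes was called in the knockdown line (0.00627%) and 3.76% had an unadjusted p under 0.05, as 0 of the 10 members had. Of the 10 mean differences 8 were above 0, against 52.7% of all genes.

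By pair, 8, 7 and 7 of the 10 members were higher with dox in pairs 1, 2 and 3 of the knockdown line, against 51.8%, 53.7% and 54.9% of all genes. The ligands showed no shared direction. Bmp4 had 8.03, 8.62 and 8.26 with dox and 8.35, 8.73 and 7.88 without dox, a difference of -0.01 ± 0.37. Bmp2 (-0.03 ± 0.18), Bmp7 (0.10 ± 0.19) and Bmp5 (0.20 ± 0.27) also lay within about 1 SE of 0. Bmp2 and Bmp5 were below the brightness filter on all 6 knockdown line arrays, so that their differences there are those of dim probe sets. Replicate 2 of this line had the highest Bmp4 of its group and the lowest Id1, Id3 and Msx1, with and without dox. Bmp4 and these response genes were thus not ordered alike across the knockdown line arrays. In the overexpression line the replicate 2 arrays, highest in Bmp4, were also highest in Msx1, but this did not hold for Id1 and Id3. Id3 was highest there on the replicate 1 array without dox (10.19), where Bmp4 was at 9.81. Id1 was higher on that array (9.934) than on the replicate 2 array without dox (9.916).

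In the overexpression line the 3 pairs did not run alike. In pair 1 (day 5) 0 of the 10 members were higher with dox, against 50.2% of all genes, and their median difference was -0.294. In pair 2 (day 5) 9 of 10 were higher, against 55.3% of all genes, with a median of 0.115. In pair 3 (day 4) 6 of 10 were higher, against 57.5%, with a median of 0.0671. Bmp2 was the only member with 1 sign throughout, lower with dox by -0.693, -0.313 and -0.0258 in pairs 1, 2 and 3. Such a run of 3 lower pairs was seen in 10.5% of all genes. Its mean difference was -0.34 ± 0.18 (0.788-fold; limma, adjusted p = 1; exact permutation p = 0.167, the smallest this design allows).

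Of the 10 mean differences 4 were above 0, against 56.7% of all genes, and 0 members were higher with dox in all 3 pairs, against 16.6%. Of the other members, Msx1 had the highest mean difference in this line (0.16 ± 0.37) and Bmp5 the lowest (-0.15 ± 0.27). In the overexpression line 1 of the 15950 genes was called (0.00627%) and 0.934% had an unadjusted p under 0.05, as 0 of the 10 members had. The 95% confidence intervals still hold sizeable effects, from -0.80 to 0.83 for Bmp4 and from -0.65 to 0.98 for Msx1 in the overexpression line, and from -0.10 to 1.23 for Id3 in the knockdown line.

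The difference between the 2 dox effects, knockdown line minus overexpression line, was above 0 in 8 of the 10 genes, against 50.1% of all genes. It was largest for Id3 (0.62 ± 0.43), Msx2 (0.42 ± 0.36) and Msx1 (0.39 ± 0.52). None was called (limma, adjusted p = 1 for each), as 0 of all genes were (0%), and 0 of the 10 had an unadjusted p under 0.05, against 2.13% (340 genes). The dox treatments also differed in length between the lines.

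**Figure D3:**
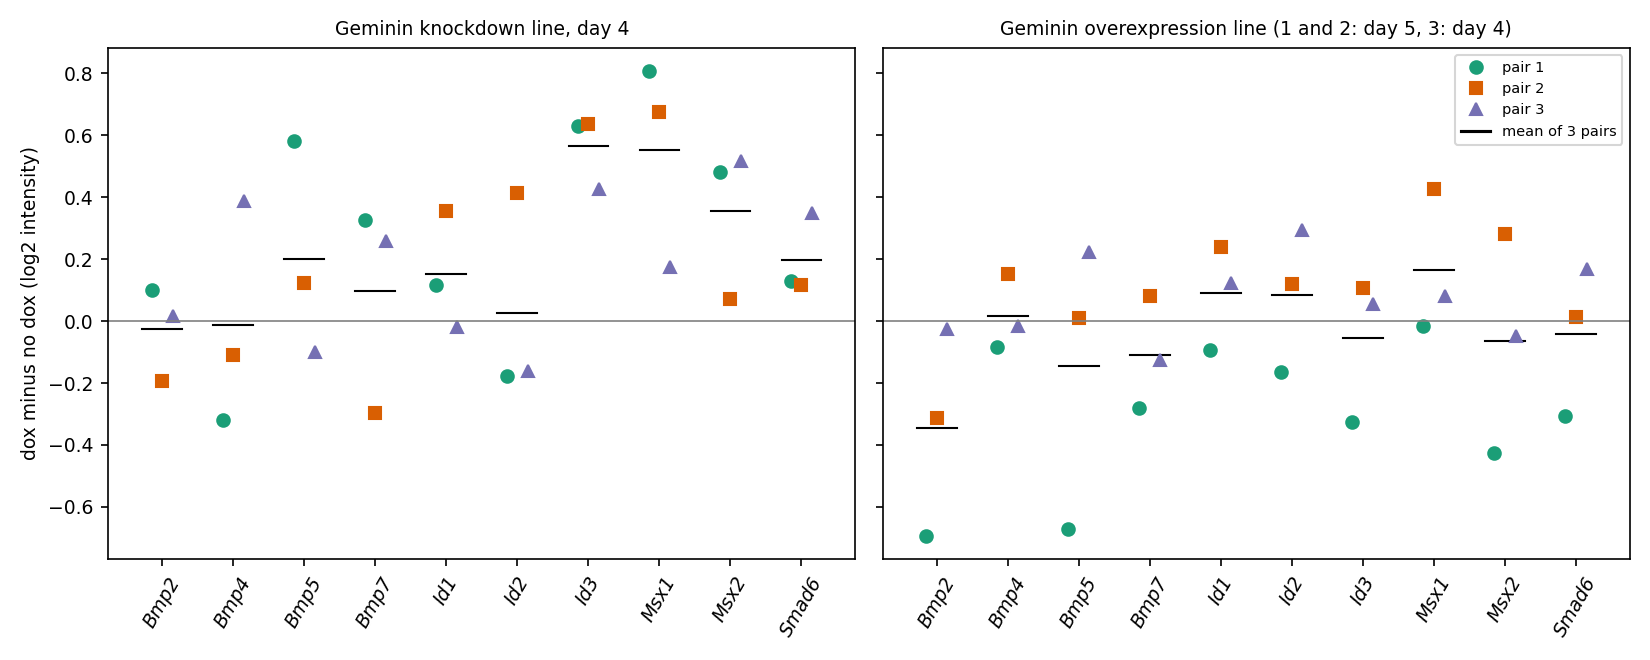
Log2 level with dox minus log2 level without dox in each of the 6 replicate pairs, for the 10 genes. Each point is 1 pair, each bar the mean of 3 pairs, and the line at 0 marks no difference. Pair 1 of the overexpression line lies below 0 for all 10 genes, and Id3, Msx1, Msx2 and Smad6 lie above 0 in all 3 pairs of the knockdown line.

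The rest of the pathway was described from 6 lists. They held ligands, receptors, SMADs, extracellular antagonists and modulators, intracellular modulators, and response genes. Of their genes, 65 other than the 10 were tested. On day 5 against day 4, 42 of the 65 were above 0, 0 were called, 11 were higher and 2 lower at an unadjusted p under 0.05, and the median was 0.0515. Among the extracellular antagonists and modulators, 12 of 15 were above 0 and 6 had an unadjusted p under 0.05. They included Bmper, which binds BMPs outside the cell (1.10 ± 0.27; limma, adjusted p = 0.0963), and Cer1, a secreted inhibitor of Nodal and BMP (1.33 ± 0.59; adjusted p = 0.343). The receptors had 5 of 11 above 0, and Acvr2b, a type II receptor, was at -0.37 ± 0.14 (limma, adjusted p = 0.267), while the co-receptor gene Rgma was at 0.26 ± 0.22.

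Among the 6 SMADs the feedback inhibitors differed in sign, with Smad6 at 0.38 ± 0.18 and Smad7 at -0.39 ± 0.24 on day 5 against day 4. Neither was called. Skil, a repressor of SMAD-driven transcription, was at -0.51 ± 0.11 (limma, adjusted p = 0.0665) and Zeb2, a SMAD-binding repressor, at 0.54 ± 0.21 (adjusted p = 0.28). Of the 20 response genes tested 16 were above 0, and these 16 include the members Id1, Id2, Id3, Msx1 and Msx2. Tbx3, a T-box factor gene that is also in the pluripotent marker list, was at 1.07 ± 0.50 (limma, adjusted p = 0.371). In the line comparison 34 of the 65 genes were above 0, with a median of 0.0664. At an unadjusted p under 0.05, 14 were higher in the overexpression line and 1 was lower. Of the 20 response genes 10 were above 0. The 1 gene of the 65 that was called was Smad1, which encodes a receptor-activated SMAD. It was 0.83 ± 0.14 higher in the overexpression line (limma, adjusted p = 0.0456).

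No gene of the pathway lists was called for dox in either line. In the knockdown line 33 of the 65 genes were above 0 and 1 had an unadjusted p under 0.05, the type I receptor gene Acvrl1 (-0.34 ± 0.15; limma, adjusted p = 0.965). In the overexpression line 24 of 65 were above 0 and 1 had an unadjusted p under 0.05, Chrdl1, a chordin-like antagonist (0.29 ± 0.12; limma, adjusted p = 1). The 2 SMAD and 2 antagonist genes farthest from 0 in the knockdown line were Smad9 (-0.29 ± 0.15), Smad1 (0.20 ± 0.12), Fst, which encodes follistatin (0.74 ± 0.58), and Cer1 (0.42 ± 0.56). Among ligands and receptors there, Bmp15 was at -0.27 ± 0.14, Gdf6 at -0.22 ± 0.18 and Bmpr2, the type II BMP receptor gene, at 0.26 ± 0.14. The modulator gene Zeb2 was at 0.18 ± 0.20 and Smurf2, a ubiquitin ligase gene, at 0.17 ± 0.10.

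With dox in the overexpression line, the genes farthest from 0 in each list had differences under 0.5 in size. Among ligands and receptors Bmp8b was at 0.15 ± 0.10, Eng, which encodes the co-receptor endoglin, at 0.24 ± 0.28 and the type I receptor gene Bmpr1a at -0.12 ± 0.11. Smad7 was at 0.18 ± 0.22, Smad1 at -0.06 ± 0.12 and Cer1 at -0.40 ± 0.56. Zfp423 was at 0.15 ± 0.24 and Smurf2 at -0.15 ± 0.10. The response genes Msx3 and Tbx2 were at 0.20 ± 0.10 and -0.20 ± 0.12. None of these was called (limma, adjusted p = 1 for each).

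**Figure D4:**
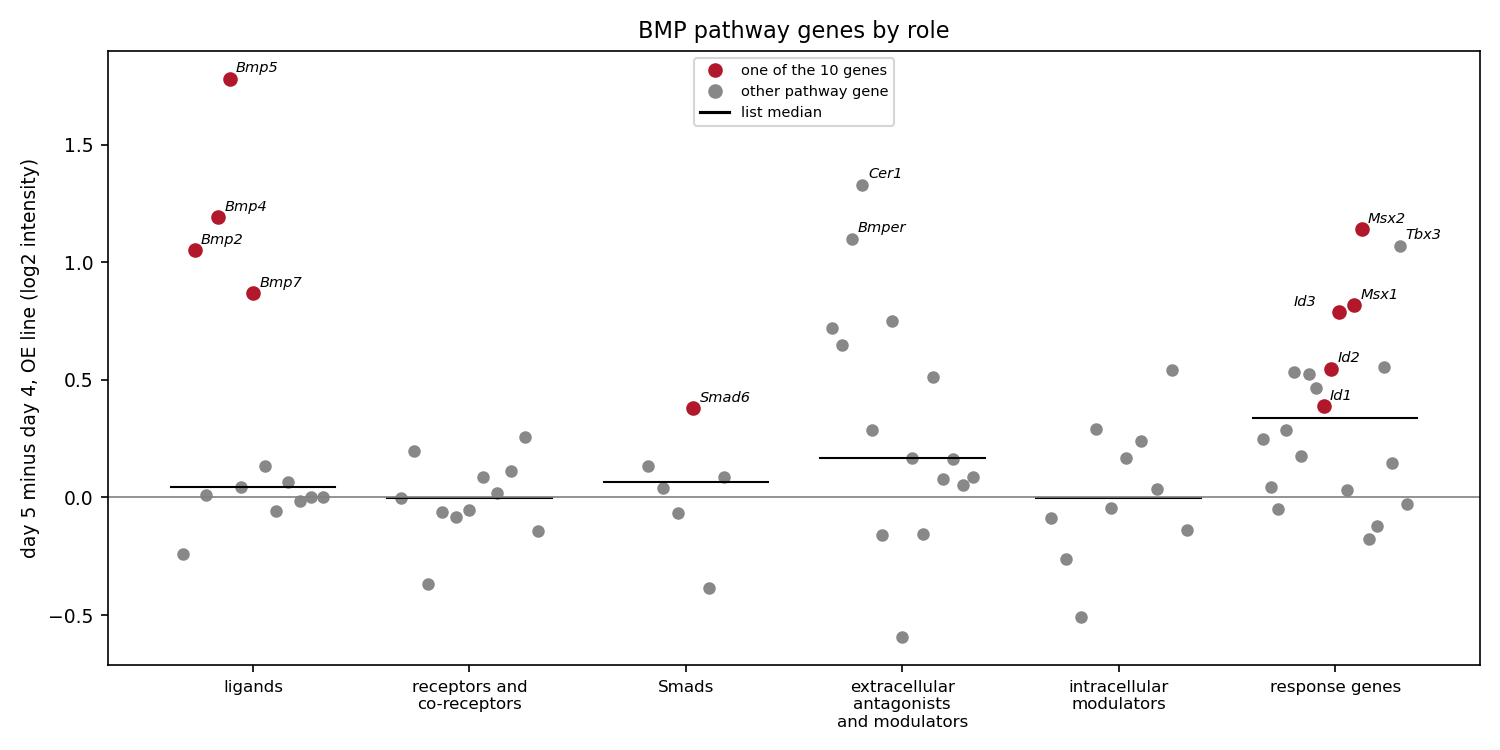
Log2 difference of every tested gene of the 6 pathway lists between day 5 and day 4 of the overexpression line, by role, with the 10 genes in red and list medians as bars. The 10 genes lie between 0.38 and 1.78, while the 65 other genes have a median of 0.0515 and lie on both sides of 0.

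Cell type markers also differed between the days and the lines, and not all lists ran in the direction of the 10 genes. On day 5 against day 4, 7 of 8 lateral and extraembryonic mesoderm markers were above 0, 4 had an unadjusted p under 0.05, and Tbx20 was called (1.24 ± 0.22; limma, adjusted p = 0.0457). Tbx20 passed the brightness filter through its overexpression line levels, which were highest on day 5, so its call is a description. The next sums are those of all 8 mesoderm markers. Their summed intensity was 3229 to 5000 with dox and 3486 to 4969 without dox on day 5, against 2543 with dox and 2956 without on day 4. Pluripotent markers were above 0 in 7 of 10, with Pou5f1 called lower (-0.59 ± 0.10; limma, adjusted p = 0.0383). Visceral and primitive endoderm markers were above 0 in 7 of 9 and primitive streak markers below 0 in 7 of 8. Surface ectoderm and trophoblast markers were above 0 in 5 of 6, 2 of them with an unadjusted p under 0.05. Their summed intensity was 11440 to 12500 with dox and 9784 to 12160 without dox on day 5, against 7194 with dox and 6160 without on day 4. Krt8 and Krt18 weigh most in this sum, with mean levels of 12.58 and 12.05 on day 5 with dox. Their day differences were 0.715 ± 0.537 and 1.13 ± 0.434. Those of the other markers in the list were 0.468 for Elf5, 0.103 for Cdx2, 0.0707 for Tfap2a and -0.0288 for Tfap2c. Neural ectoderm markers were below 0 in 5 of 6, none with an unadjusted p under 0.05.

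The feeder fibroblast markers Postn and Lum were below the brightness filter. Of the 6 tested, 4 were above 0 on day 5 against day 4, 2 of them with an unadjusted p under 0.05. The summed intensity of all 8 was 1955 to 2220 with dox and 1738 to 2111 without dox on day 5, against 1587 with dox and 1731 without on day 4, and 1377 to 1490 with dox and 1383 to 1853 without dox in the knockdown line.

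Between the lines on day 4, 8 of 8 primitive streak markers were higher in the overexpression line, each with an unadjusted p under 0.05. Evx1 (2.64 ± 0.41; limma, adjusted p = 0.0321) and Mesp1 (1.62 ± 0.20; adjusted p = 0.0171) were called. The summed intensity of the 8 streak markers there was 10650 with dox and 12030 without dox, against 2261 to 6910 with dox and 1290 to 4201 without dox in the knockdown line. Of the lateral and extraembryonic mesoderm markers 5 of 8 were above 0, and Kdr (2.43 ± 0.34; limma, adjusted p = 0.0203) and Tbx20 (1.56 ± 0.26; adjusted p = 0.0438) were called. Pluripotent markers were below 0 in 8 of 10 and visceral and primitive endoderm markers in 7 of 9. Surface ectoderm and trophoblast markers and neural ectoderm markers were each above 0 in 4 of 6, and feeder markers in 3 of 6. Mesp1 and Tbx20 had means below the brightness filter in the knockdown line, as Bmp2 had.

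With dox in the knockdown line, 8 of 8 primitive streak markers were above 0 (1 with an unadjusted p under 0.05), while 9 of 10 pluripotent and 9 of 9 visceral and primitive endoderm markers were below 0. With dox in the overexpression line, 0 of 8 lateral and extraembryonic mesoderm markers and 8 of 10 pluripotent markers were above 0. The part of these cell types in the BMP gene values was not tested.

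The genes whose levels ran most like each member over the 12 arrays were found by Pearson's r, as a description. The arrays fall into clusters by line and day, which alone gives high values. Bmp4 ran most like Foxf1, a mesoderm forkhead gene (r = 0.98, and 0.56 within the 6 knockdown line arrays). Msx1 ran most like Peg3 and Lmo2 (r = 0.992 each), Msx2 like Gpc3 (0.994) and Bmp2 like Nrp1 (0.993). Nrp1 followed Bmp2 in the 6 overexpression line arrays (0.985) and much less in the 6 knockdown line arrays (0.369), where Bmp2 was dim.

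Msx1, Id1, Bmp7, Id3 and Smad6 had an r above 0.9 with their nearest gene within each line as well. For Msx1 and Peg3 it was 0.907 in the knockdown line and 0.983 in the overexpression line. Id1 and Ccnd2, the cyclin D2 gene, had r = 0.991 over the 12 arrays, 0.985 in the knockdown line and 0.962 in the overexpression line. Bmp7 and Prox1, a homeobox gene, had 0.983, 0.969 and 0.997 in the same order. Id3 and Ccdc8 had 0.986, 0.993 and 0.913, and Smad6 and Map4k4 had 0.991, 0.958 and 0.963. Bmp5 ran most like Ptprm (0.989), with 0.818 in the knockdown line and 0.979 in the overexpression line. Id2 had the lowest best match of the 10, Rxylt1 (0.931), with 0.391 and 0.979 in the same order.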

How the data were processed

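Total RNA of 12 samples was hybridised to Affymetrix Mouse Gene 1.0 ST arrays, 1 µg each, per the labels' protocols. The deposited intensity values are linear, 1 per probe set and array; how they were summarised and normalized is not given in the sources used here. On the 12 arrays, array medians spanned 0.324 on the log2 scale, so log2(intensity + 1) values were quantile-normalized over 35512 probe sets. Fold changes on this scale understate those of dim genes. Of the probe sets, 21789 were annotated to 1 gene, 1621 to several and 12102 to none. Genes with a mean below the 20th percentile (6.46) were not tested.

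One limma 3.58.1 model in R 4.3.3 (lmFit, eBayes) covered all 12 arrays, with a baseline per line and day, a dox effect per line and no replicate block (7 residual, 3.5 prior degrees of freedom). The number of arrays limits the precision. Exact permutation tests were two-sided. The steps were tested on simulated data. Figures used matplotlib 3.10.9.

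The members, pathway lists and tests were chosen with earlier results of these data known. Genes were named from the 10 members, Gmnn, the called genes and 2 largest differences of each pathway list, and the 2 genes nearest each member by Pearson's r, of which most second ones are not printed. Pou5f1, Evx1, Mesp1, Kdr, Tbx20, Postn, Lum and the surface ectoderm and trophoblast markers were named after their values were seen. Runx2 and T are not analysed here, and Bmp10 and Sostdc1 were below the brightness filter.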

Additional observations from a re-analysis of the deposited data

How the results depend on the processing

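The number of arrays limits the precision, and the day and line differences each rest on 1 day 4 pair of the overexpression line. Differences of the 10 genes between days stayed above 0 under the alternatives that tested them (Bmp5 falls below a filter at the 40th percentile), while small dox differences changed sign. Where a value moved, the cause was not tested. Leaving out arrays or pairs of arrays (pairs were added after seeing the data) gave these ranges. For day 5 against day 4, 0 to 350 genes were called, 0 to 6 members were called and 4 to 10 had an unadjusted p under 0.05. For the overexpression line against the knockdown line, the same counts were 0 to 80, 0 to 3 and 5 to 9, and Id2 ran from -0.257 to 0.10. For dox in the knockdown line 0 to 1 gene was called and 0 to 2 members had an unadjusted p under 0.05, with Bmp2 from -0.0981 to 0.0581, Bmp4 from -0.235 to 0.194, Bmp7 from -0.073 to 0.351, Id1 from -0.024 to 0.242 and Id2 from -0.169 to 0.127. For dox in the overexpression line 0 to 1 gene was called and 0 to 1 member had an unadjusted p under 0.05, with Bmp4 from -0.37 to 0.396, Bmp5 from -0.41 to 0.222, Id2 from -0.153 to 0.379, Id3 from -0.137 to 0.0811, Msx1 from -0.246 to 0.551, Msx2 from -0.405 to 0.282 and Smad6 from -0.182 to 0.158. For the difference of the dox effects 0 to 2 members had an unadjusted p under 0.05, with Bmp4 from -0.409 to 0.357, Bmp5 from -0.0211 to 0.611, Id1 from -0.114 to 0.152 and Id2 from -0.353 to 0.178. With the replicate number as a block, 3 members in the knockdown line, 1 in the overexpression line and 1 for the difference had an unadjusted p under 0.05, and over all genes such p-values were 1941, 572 and 1384, against 599, 149 and 340 without the block. Under the replicate block Id3 had the smallest adjusted p of the members in the knockdown line (limma, adjusted p = 0.189), and no member was called. The numbers did not meet the rule for pairs, since the deviations of same-numbered arrays correlated at 0.602, 0.438 and 0.051 in the knockdown line and 0.785 on day 5, although 6 of 6 knockdown line arrays correlated best with their own number. With the pair as a random block (correlation 0.49), 2 and 1 members in the knockdown and overexpression lines and 1 for the difference had an unadjusted p under 0.05. In that fit 1 gene was called for the difference, 0 genes and 0 members for day, and 25 genes and 1 member for line. With the arrays of a line alone 0 genes were called for dox in either line, 1 member had an unadjusted p under 0.05 in the knockdown line, and 19 genes and 0 members were called for day. With the day 5 arrays alone 0 genes were called for dox in the overexpression line and Id2 was at -0.0217. The arrays without dox alone gave 0 genes and 0 members for day and for line. Array weights gave 2567 genes and 10 members for day, 1170 genes and 7 members for line, and 201 genes for dox in the overexpression line, where Bmp5, Id3 and Smad6 were at 0.147, 0.0345 and 0.123. With weights Id2 in the knockdown line was at -0.0487 and the Id1 difference of dox effects at -0.0209. Without a brightness filter 27 genes and 0 members were called for day and 29 genes and 1 member for line. With the filter at the 40th percentile, where Bmp5 was not tested, 1 member (Bmp2) was called for day. Without quantile normalization 30 genes and 1 member were called for line, Id2 in the knockdown line was at -0.000257, and the share of higher genes among those with an unadjusted p under 0.05 was 23.9%, against 57.8% in the main setting, for dox in the knockdown line. That share was 50% against 36.9% for dox in the overexpression line, 17.3% against 53.2% for the difference and 40.8% against 51.8% for line.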
